A study of Triticum aestivum with 8 samples.

Results

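The accessible regions of cold-treated axillary buds were compared with those of seedling shoot apices in the cultivar AiKang58 of hexaploid bread wheat, Triticum aestivum. The buds, 1.0 to 2.0 cm long, were taken at 6 weeks from plants vernalized at 4 °C for 30 days from the age of 2 weeks, with unchanged day and night lengths. The apices were taken from seedlings at 2 weeks with no cold treatment. The growth condition stated for both tissues was a day of 16 h at 22 °C and a night of 8 h at 19 °C. Tissue, age and cold therefore differ together between the groups, and their parts in any difference cannot be told apart. The comparison uses 4 of the 8 libraries of the series and 2 of its 4 peak lists, 1 list for the 2 libraries of each tissue, chosen by tissue label, with 254067 peaks in all. No value per library was at hand, so the spread between libraries is unknown and no difference between the tissues could be tested. The series was made to study the gene networks of SPL proteins, a plant family of transcription factors, and their binding sites in relation to expression differences between subgenomes.

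In ATAC-seq a transposase inserts sequencing adapters where DNA is not wrapped tightly in nucleosomes, so that peaks mark open stretches such as active promoters and enhancers. A shoot apex holds the meristem that produces leaves and later the spike. An axillary bud holds a meristem in a leaf axil that can grow out into a tiller. Prolonged cold, called vernalization, makes winter wheat competent to flower. The wheat genome consists of 3 related subgenomes, A, B and D, with 7 chromosomes each. Its chromosomes are gene-rich toward the ends, where most recombination takes place, and rich in repeats in the interior. AiKang58 is known to carry the short arm of a rye chromosome in place of that of 1B.

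The bud list held 122118 peaks and the apex list 131949. They covered 94.3 Mb in buds and 100.02 Mb in apices. Sequencing depth behind the lists is unknown, so a longer list need not mean more open chromatin, and the lack of a peak need not mean closed chromatin. Each list had a narrowest peak of 201 bp and a smallest gap between neighbours of 201 bp. Widths were multiples of 25 bp for 82.1% of bud peaks and 95.5% of apex peaks, so the lists may not have been made in the same way. The part of this in the widths, the specific shares and the ratios of peak numbers was not tested. No sequence or gene annotation on the build of the lists was used here, so regions are given by position and the labelled tissues were not checked against marker genes.

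Most peaks of either list had a counterpart in the other tissue when an overlap of at least 1 bp was enough. The bud list was the one with the smaller specific share. Of the bud peaks 44894 had no apex peak overlapping them (36.8%, 95% interval 36.5 to 37.03), and of the apex peaks 54776 had no bud peak (41.5%, 41.2 to 41.8). The intervals cover counting error over peaks and no error between libraries. These shares, 36.8% in buds and 41.5% in apices, are the background for the shares of specific peaks given for parts of the genome. The bud list was also the shorter one, and with both lists limited to the same number of their widest peaks the shares were 38.7% in buds and 39.2% in apices. Joined over both lists the peaks formed 171918 sites. Of these sites 26.1% were found in buds alone, 31.9% in apices alone and 42.02% in both. Few peaks sat at the limit of the rule. The largest overlap was 50 bp or less for 448 shared bud peaks and 439 shared apex peaks, and a peak of the other list lay within 50 bp of 471 bud-specific and 449 apex-specific peaks.

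Specific peaks were narrow in both tissues. Bud-specific peaks had a median width of 400 bp (quartiles 300 and 550 bp), against 725 bp (425 and 1163 bp) for bud peaks shared with apices. Apex-specific peaks had a median width of 375 bp (275 and 552 bp), against 700 bp (425 and 1150 bp) for apex peaks shared with buds. Specific peaks held 22.8% of the covered bases in buds and 26.7% in apices. The specific share dropped with width in both lists. Among peaks of up to 300 bp it was 58.3% in buds and 68.1% in apices. Among peaks over 300 and up to 500 bp it was 54.03% in buds and 54.004% in apices. Among those over 500 and up to 1000 bp it was 29.0% in buds and 32.1% in apices, and above 1000 bp it was 7.76% in buds and 12.5% in apices. Wide peaks found in a single one of the tissues were rare: 193 of the 6146 bud peaks over 2000 bp (3.14%) and 391 of the 6669 apex peaks over 2000 bp (5.86%). The overlap rule itself favours wide peaks as shared, and its part in this contrast was not tested.

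**Figure D1:**
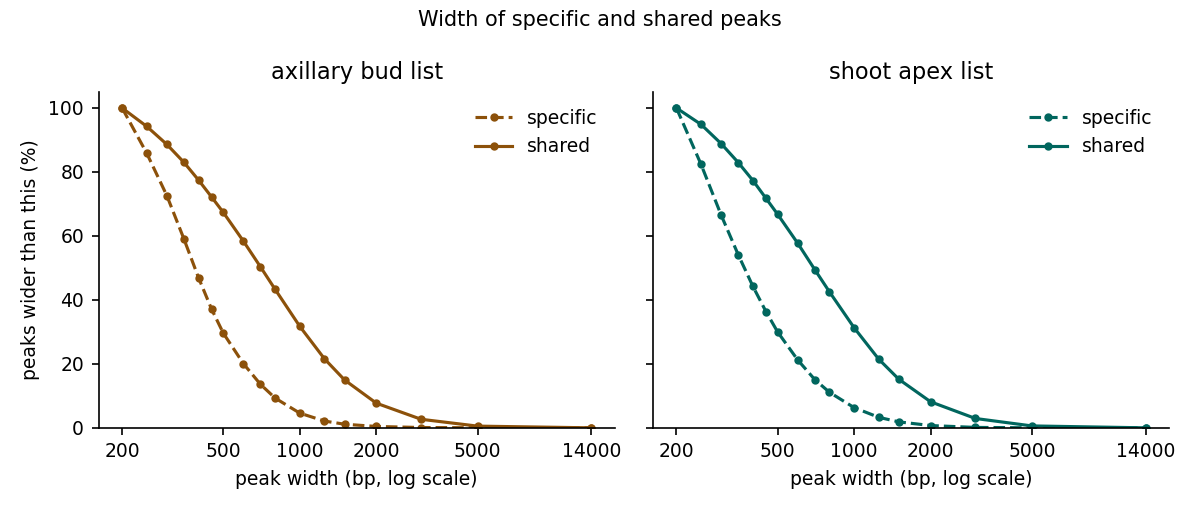
Share of peaks (vertical axis, %) wider than a given width (horizontal axis, bp, log scale), for specific (dashed) and shared (solid) peaks of the bud list (left) and the apex list (right). Above 1000 bp lie 4.59% of bud-specific and 31.7% of shared bud peaks, and 6.32% of apex-specific and 31.3% of shared apex peaks.

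The widest bud-specific peak lay on chromosome 6A from 597335073 to 597344974 and had 9902 bp, with the nearest apex peak 3304 bp away. The next had 8325 bp and lay on 2D from 613341079 to 613349403. It was followed by a peak of 7436 bp on 1B from 672954257 to 672961692 and one of 6525 bp on 1D from 472531781 to 472538305. The fifth, on 6B from 673694725 to 673700749 (6025 bp), was 56417 bp from the nearest apex peak. All 5 lay 16.9 to 47.3 Mb from a chromosome end. The widest apex-specific peak lay on 3D from 489157329 to 489165453 (8125 bp), and the nearest bud peak was 204604 bp away. The second had 6700 bp on 2B from 11356501 to 11363200, and the third 6350 bp on 2A from 55852502 to 55858851. Then came a peak of 5450 bp on 2D from 18643884 to 18649333 and one of 5400 bp on 4A from 6916899 to 6922298. In this order the apex-specific peaks lay 126.3, 11.4, 55.9, 18.6 and 6.92 Mb from a chromosome end. Positions here and in what follows are those of the deposited lists.

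A clear difference between the lists was where along the chromosome the specific peaks lay. Bud-specific peaks had a median distance of 61.6 Mb to the nearer chromosome end (quartiles 20.2 and 153.9 Mb) and apex-specific peaks one of 115.5 Mb (50.7 and 206.2 Mb). Shared peaks lay in between, with a median of 84.6 Mb for bud peaks and 83.2 Mb for apex peaks. These values are close by construction, because shared peaks of both lists belong to the same sites. Within 5 Mb of an end 50.8% of bud peaks were specific (49.6 to 51.9), against 27.9% of apex peaks (26.7 to 29.2). From 5 to 10 Mb the specific shares were 44.8% in buds and 28.7% in apices, and from 10 to 20 Mb 42.7% in buds and 30.1% in apices. From 20 to 50 Mb they were 39.2% in buds and 35.7% in apices. The order then turned. From 50 to 100 Mb 33.8% of bud peaks and 41.9% of apex peaks were specific, and beyond 100 Mb 32.8% of bud peaks (32.4 to 33.2) and 47.1% of apex peaks (46.7 to 47.5). So with growing distance from the end the bud share moved from above its background to below it, and the apex share the other way. Both shares rest on the same shared sites. They are therefore tied to each other and to the ratio of peak numbers, and are not independent observations.

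Counted per length, the excess of the bud list was at the ends and that of the apex list in the interior. Within 5 Mb of an end there were 16.6 bud-specific and 6.57 apex-specific peaks per Mb, a ratio of 2.52. Beyond 100 Mb there were 1.71 bud-specific and 3.09 apex-specific peaks per Mb, a ratio of 0.555. Over whole lists, the bud list had 1.39 times as many peaks as the apex list within 5 Mb of an end (6850 against 4944) and 0.796 times as many beyond 100 Mb (51504 against 64669). In the outermost 1 Mb, a limit chosen after the values were seen, 53.7% of 1474 bud peaks and 24.02% of 974 apex peaks were specific.

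**Figure D2:**
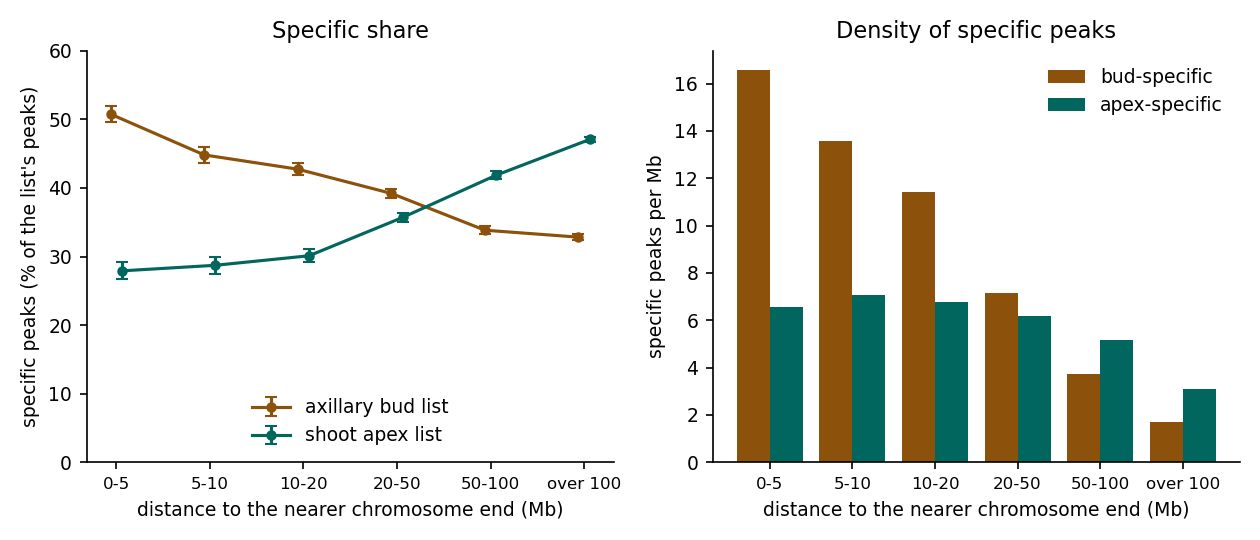
Left, specific peaks as a percentage of each list's peaks in 6 classes of distance to the nearer chromosome end (Mb), with 95% Wilson intervals. Right, bud-specific and apex-specific peaks per Mb in the same classes. The bud share runs from 50.8% at the end to 32.8% in the interior and the apex share from 27.9% to 47.1%.

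The pattern was present on each of the 21 chromosomes. On 21 of 21 the bud-specific share was higher within 10 Mb of an end than beyond 100 Mb, and on 21 of 21 the apex-specific share was lower there. Within 10 Mb the bud-specific share ranged from 41.7% on 3B to 55.02% on 5A, and the apex-specific share from 25.1% on 4D to 39.5% on 1A. The value on 1A stood above the next highest, 32.5% on 5D. Beyond 100 Mb the bud-specific share ranged from 28.1% on 1A to 38.5% on 6B, and the apex-specific share from 41.4% on 6B to 51.6% on 7D. Chromosomes of 1 list share their libraries and are not replicates, so these counts describe how widespread the pattern is. The bud and apex counts are tied in the same way as the shares.

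It was also present in each class of width. Among peaks of up to 300 bp, 73.8% of bud peaks within 5 Mb of an end and 52.8% beyond 100 Mb were specific. For apex peaks of that width the shares were 48.8% within 5 Mb and 73.8% beyond 100 Mb. Among peaks over 1000 bp the bud shares were 16.5% within 5 Mb and 5.33% beyond 100 Mb, and the apex shares 7.86% within 5 Mb and 15.6% beyond 100 Mb. The 2 ends of the chromosomes, taken apart, gave similar values close to the tip. Within 5 Mb the specific share was 52.4% in buds and 27.99% in apices at the start of the numbering, and 49.3% in buds and 27.9% in apices at its last end. From 50 to 100 Mb the bud shares were still close, with 34.3% at the start and 33.6% at the last end, while the apex shares were 46.8% at the start and 39.01% at the last end. Beyond 100 Mb the bud shares parted, with 35.8% at the start and 30.9% at the last end. At the start the bud share thus did not fall further there. The apex shares beyond 100 Mb were 47.3% at the start and 46.9% at the last end.

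Shared sites carried a second measure, the width of the peak in either tissue. It comes from the same 2 lists as the specific shares and is not independent of them. Of the 72248 shared sites, 63995 (88.6%) paired 1 bud peak with 1 apex peak. Another 3823 joined 1 bud peak with several apex peaks, 3770 joined several bud peaks with 1 apex peak, and 660 had several of both. At the sites of 1 peak each the median width was 700 bp in buds and 675 bp in apices, and the median log2 ratio of bud to apex width was 0.00 (quartiles -0.44 and 0.49). The bud peak was wider at 48.7% of sites, narrower at 47.8% and equal at 3.50%. Peaks were at least 2-fold wider in buds at 7097 sites (11.1%, 10.8 to 11.3) and at least 2-fold narrower at 6834 (10.7%, 10.4 to 10.9). At the wider sites the medians were 996 bp in buds and 350 bp in apices, and at the narrower sites 350 bp in buds and 1025 bp in apices. Peaks of a pair overlap by definition. Their centres were a median of 112 bp apart (quartiles 43 and 218 bp), and at 52.6% of sites the wider peak covered the whole of the narrower one.

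This balance held over the whole genome but not along the chromosome. Within 5 Mb of an end the median width was 825 bp in buds and 600 bp in apices, a median log2 ratio of 0.27, and the bud peak was the wider one at 65.3% of 2769 sites. The median log2 ratio was 0.22 from 5 to 10 Mb, 0.16 from 10 to 20 Mb and 0.07 from 20 to 50 Mb. It was -0.03 from 50 to 100 Mb and -0.07 beyond 100 Mb, where the median width was 650 bp in buds and 700 bp in apices and the bud peak was wider at 43.4% of 29136 sites. Against backgrounds of 11.1% wider and 10.7% narrower, 21.02% of sites within 5 Mb were at least 2-fold wider in buds (19.5 to 22.6) and 5.45% at least 2-fold narrower (4.67 to 6.36). Beyond 100 Mb 8.36% were at least 2-fold wider (8.05 to 8.69) and 12.9% at least 2-fold narrower (12.5 to 13.2). Most widths lie on steps of 25 bp, and small medians such as -0.03 are to be read against that step.

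**Figure D3:**
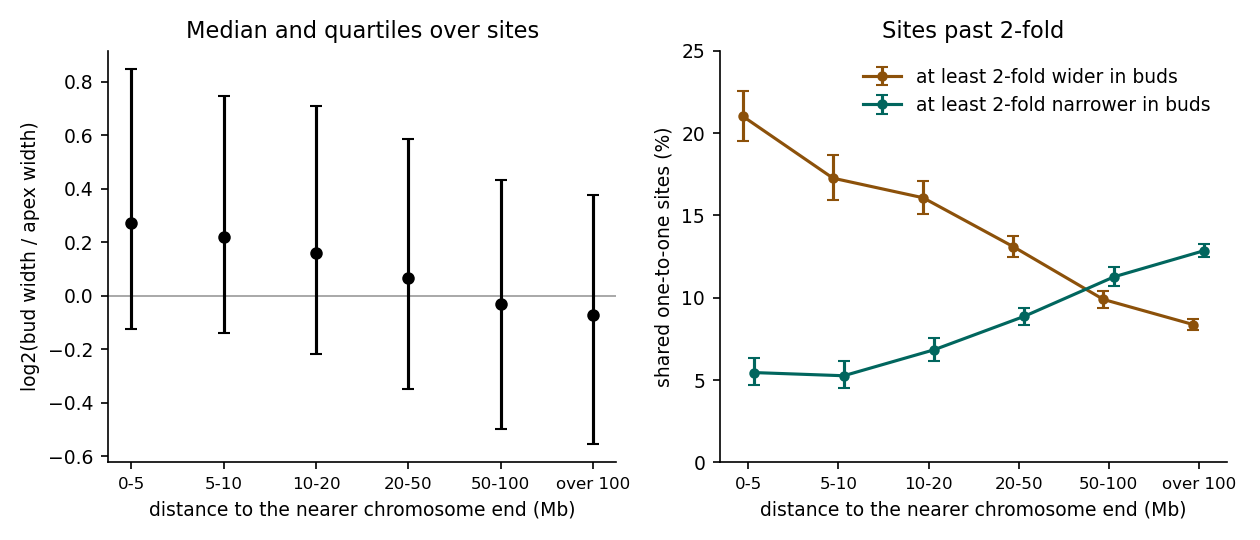
Width change at the 63995 shared sites with 1 peak in each list, in 6 classes of distance to the nearer chromosome end (Mb). Left, median and quartiles of log2(bud width / apex width), with the median going from 0.27 at the end to -0.07 in the interior. Right, the share of sites (%) at least 2-fold wider or narrower in buds, with 95% Wilson intervals.

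The width change followed the same course on each chromosome. Within 10 Mb of an end the median log2 ratio was above 0 on 21 of 21 chromosomes, from 0.10 on 3B to 0.43 on 5A. Beyond 100 Mb it was below 0 on 19 and equal to 0 on the other 2, 5B and 6B, with the lowest value of -0.17 on 6D. It was not confined to narrow peaks. At sites with a mean width over 1000 bp the median width within 10 Mb was 1625 bp in buds and 1275 bp in apices (log2 ratio 0.28, 1724 sites), and beyond 100 Mb it was 1300 bp in buds and 1425 bp in apices (-0.07, 7306 sites). Sites with a mean width of up to 300 bp had medians of 250 bp in buds and 275 bp in apices in both zones, where widths near the minimum of 201 bp leave little room for a change. Within 10 Mb of an end the bud peak reached past the apex peak on both sides at 36.5% of sites and lay inside it at 16.1%. Beyond 100 Mb it reached past on both sides at 19.0% and lay inside at 31.3%. A single bud peak that overlapped several apex peaks was found at 8.49% of the 6500 shared sites within 10 Mb, and several bud peaks that overlapped a single apex peak at 3.95%. Beyond 100 Mb a single bud peak overlapped several apex peaks at 4.35% of 32468 sites, and the reverse was found at 5.15%.

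The largest single width ratios had the same layout. The largest was at the last end of 1B, where a bud peak of 5654 bp from 689799772 to 689805425 held an apex peak of 250 bp from 689799818 to 689800067, a ratio of 22.6. The next were on 6B from 666216 to 670805 (4590 bp in buds, 300 bp in apices) and on 2D from 2036620 to 2040044 (3425 bp in buds, 225 bp in apices). Then followed 4B from 291659318 to 291662617 (3300 bp in buds, 225 bp in apices) and 5B from 705630106 to 705633330 (3225 bp in buds, 225 bp in apices). Of these 5 sites 4 lay within 7.39 Mb of an end, and the site on 4B lay 291.7 Mb from it. The smallest ratio was on 5A, where a bud peak of 250 bp from 578064511 to 578064760 lay inside an apex peak of 6950 bp from 578060925 to 578067874. The others lay on 3D from 444483336 to 444483585 (250 bp in buds, 5388 bp in apices), on 6A from 522513070 to 522513344 (275 bp in buds, 4375 bp in apices), on 1D from 325674598 to 325674847 (250 bp in buds, 3850 bp in apices) and on 1B from 512176068 to 512176392 (325 bp in buds, 4775 bp in apices). These 5 lay 95.5 to 177.7 Mb from an end.

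A peak of the other list lay within 5000 bp of 52.6% of bud-specific and 47.5% of apex-specific peaks. The nearest apex peak lay a median of 4331.5 bp from a bud-specific peak (quartiles 1016 and 24687 bp), and the nearest bud peak 5770 bp from an apex-specific peak (1302 and 43425 bp). Neighbours in the same list were closer, at a median of 3144 bp for bud-specific and 2786 bp for apex-specific peaks. Within 500 bp of an other-list peak lay 14.6% of bud-specific and 11.6% of apex-specific peaks. At the other extreme, 4867 bud-specific peaks (10.8%) and 8876 apex-specific peaks (16.2%) had no other-list peak within 100 kb. Specific peaks also came in runs, in which neighbouring peaks of a list follow each other with no shared peak between them. Most runs were short: 15463 of 25814 in buds and 15286 of 28144 in apices were single peaks. Runs of at least 5 peaks held 13.7% of bud-specific and 20.7% of apex-specific peaks. Runs of at least 10 peaks were rare and numbered 57 in buds and 111 in apices. Within 10 Mb of an end lay 28 of the bud runs (49.1%) and 14.1% of all bud-specific peaks, and 3 of the apex runs (2.70%) and 5.23% of all apex-specific peaks. Beyond 100 Mb lay 4 of the bud runs (7.02%) and 37.7% of all bud-specific peaks, and 85 of the apex runs (76.6%) and 55.6% of all apex-specific peaks. Long runs are more likely where a larger share of the peaks is specific. That share was 47.9% in buds and 28.3% in apices within 10 Mb, and 32.8% in buds and 47.1% in apices beyond 100 Mb. Whether the runs exceed what these shares alone would give was not tested. The longest bud run had 36 peaks and lay on 5A from 2125534 to 2880527, a stretch of 755 kb with no apex peak. The longest apex run had 20 peaks on 3A from 509550960 to 510842154, with 5 bud peaks, none overlapping, in the same 1291 kb.

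Windows of 1 Mb showed the local size of these differences. Of 13410 windows with a peak in either list, 4125 had more bud peaks, 7419 more apex peaks and 1866 equal numbers. Within 10 Mb of an end 349 of 425 windows had more bud and 63 more apex peaks. Beyond 100 Mb 2180 of 9258 windows had more bud and 5627 more apex peaks. A fixed difference of 10 peaks is harder to reach where peaks are sparse. Per Mb the lists held 32.6 bud and 23.5 apex peaks within 5 Mb of an end, against 5.22 bud and 6.56 apex peaks beyond 100 Mb. Bud peaks exceeded apex peaks by at least 10 in 303 windows (2.26% of all). These were 140 of the 425 windows within 10 Mb of an end (32.9%), 159 of the 3727 windows from 10 to 100 Mb (4.27%) and 4 of the 9258 windows beyond 100 Mb (0.0432%). Apex peaks exceeded bud peaks by at least 10 in 254 windows (1.89% of all). These were 2 of the windows within 10 Mb (0.471%), 114 of those from 10 to 100 Mb (3.06%) and 138 of those beyond 100 Mb (1.49%). With this fixed limit the apex excess was most frequent at 10 to 100 Mb. Relative to the number of peaks it was largest beyond 100 Mb. The ratio of bud to apex peaks there was 0.796, against 0.896 from 50 to 100 Mb. The window on 1B from 689000001 to 690000000, at the last end, held 50 bud-specific peaks among its 63 and 2 apex-specific peaks among its 16. The next bud windows were 3D from 2000001 to 3000000 (99 bud and 53 apex peaks), 2D from 2000001 to 3000000 (84 bud and 45 apex peaks), 3D from 613000001 to 614000000 (104 bud and 66 apex peaks) and 5A from 2000001 to 3000000 (50 bud and 13 apex peaks). The midpoints of these 5 windows lay at most 2.5 Mb from an end. The windows with the largest apex excess were smaller in their difference and lay farther in. They were 6B from 18000001 to 19000000 (28 bud and 54 apex peaks), 4D from 487000001 to 488000000 (31 bud and 53 apex peaks), 5B from 659000001 to 660000000 (31 bud and 53 apex peaks), 5A from 651000001 to 652000000 (25 bud and 45 apex peaks) and 7A from 127000001 to 128000000 (14 bud and 34 apex peaks).

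The subgenomes differed little in their specific shares. Bud-specific peaks made up 35.5% of bud peaks on A chromosomes (35.1 to 36.0), 37.4% on B (36.97 to 37.9) and 37.3% on D (36.8 to 37.8), against the background of 36.8%. Apex-specific peaks made up 41.9% of apex peaks on A (41.4 to 42.3), 40.7% on B (40.2 to 41.2) and 41.95% on D (41.5 to 42.4), against 41.5%. The bud share was higher on B than on A in 6 of 7 homoeologous groups, with differences from -1.003 to 4.93 percentage points, and higher on D than on A in 6 of 7 groups, with differences from -1.42 to 3.11. Without 6B the share on B was 36.8% in buds and 41.5% in apices. D held more of its bud peaks within 10 Mb of an end (14.3%) than A (9.96%) and B (8.18%). At equal distance D was not above A near the ends. Within 5 Mb the bud-specific share was 52.5% on A, 50.8% on B and 49.4% on D, and beyond 100 Mb it was 31.3% on A, 34.03% on B and 33.1% on D. The gradient in width was present in each subgenome, with median log2 ratios within 5 Mb of 0.35 on A, 0.24 on B and 0.24 on D, and beyond 100 Mb of -0.07 on A, -0.04 on B and -0.10 on D.

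**Figure D4:**
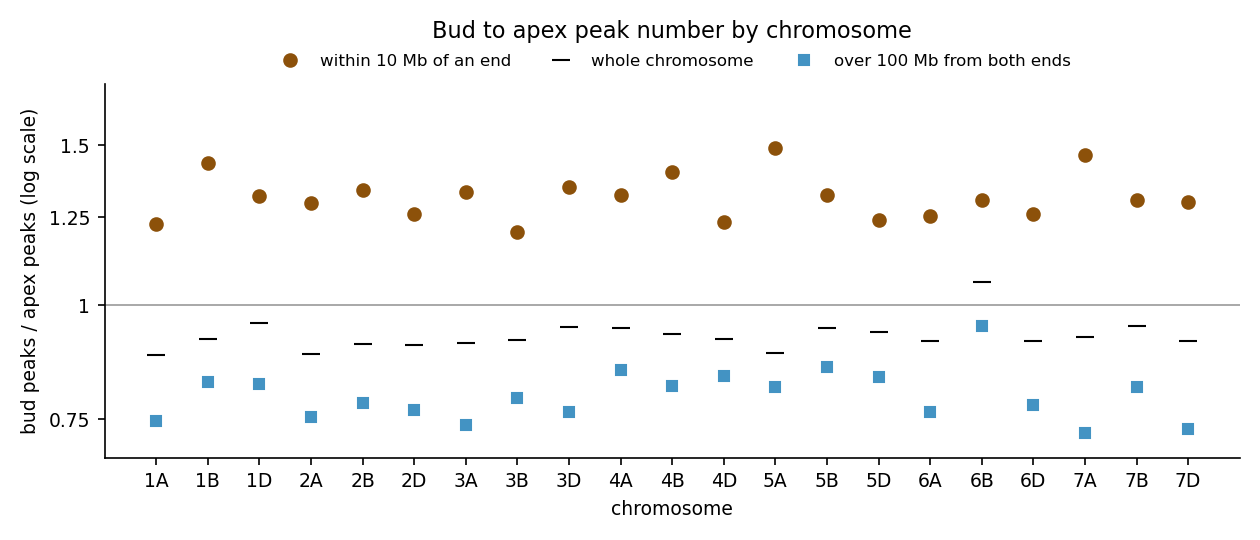
Number of bud peaks divided by the number of apex peaks (log scale) on each of the 21 chromosomes, within 10 Mb of an end (circles), over 100 Mb from both ends (squares) and over the whole chromosome (dashes). The circles lie between 1.20 and 1.49, the squares between 0.723 and 0.949, and 6B is the one chromosome with a whole-chromosome ratio above 1.

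One chromosome departed from the others. On 6B the bud list had 6451 peaks and the apex list 6083, a ratio of 1.06, while the other 20 chromosomes had ratios of 0.882 to 0.957. Chromosome 6B had the highest bud-specific share of the 21 (41.1%, followed by 39.3% on 7B) and the lowest apex-specific share (35.9%, followed by 40.2% on 4B). Its 3202 paired sites had a median log2 width ratio of 0.08, where the next highest was 0.02 on 5B. Parts of 25% of the length, a division chosen after the values were seen, showed it in some parts and not in others. In the first 25% 6B had 2285 bud and 1905 apex peaks, a ratio of 1.20, whereas the same stretch had a ratio of 0.908 on 6A, 0.979 on 6D and 0.892 to 1.03 over the other 20 chromosomes. Of these peaks 46.3% were specific in buds and 33.4% in apices, and the median log2 width ratio there was 0.18, against 0.05 on 6A and 0.08 on 6D. In the second 25% 6B did not stand apart in peak number, with a ratio of 0.931 against 0.945 on 6A and 0.901 on 6D. The bud-specific share there was 42.0% on 6B, 39.0% on 6A and 39.1% on 6D. The apex-specific share was 45.5% on 6B, 42.1% on 6A and 45.9% on 6D, and the median log2 width ratio on 6B was -0.07. Between the middle and the last 25% of the length 6B had 767 bud and 892 apex peaks, a ratio of 0.860, whereas the ratio was 0.676 on 6A and 0.706 on 6D. The bud-specific share there was 36.1% on 6B, 31.6% on 6A and 28.5% on 6D, and the median log2 width ratio was 0.00 on 6B, -0.11 on 6A and -0.24 on 6D. In the last 25% 6B had a ratio of 1.06, inside the range of the other 20 (0.925 to 1.08).

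The first 240 Mb of 1B, with few peaks in either list, differed in another way. It held 250 bud peaks, of which 53.6% were specific, and 249 apex peaks, of which 53.8% were specific. This limit was chosen after the values were seen. On the rest of 1B 35.3% of 3935 bud peaks and 41.1% of 4303 apex peaks were specific. A smaller part of the peaks was shared in this stretch than elsewhere on the chromosome, while the numbers in the 2 lists were close. The part of the rye arm that AiKang58 is known to carry in this result was not tested.

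**Figure D5:**
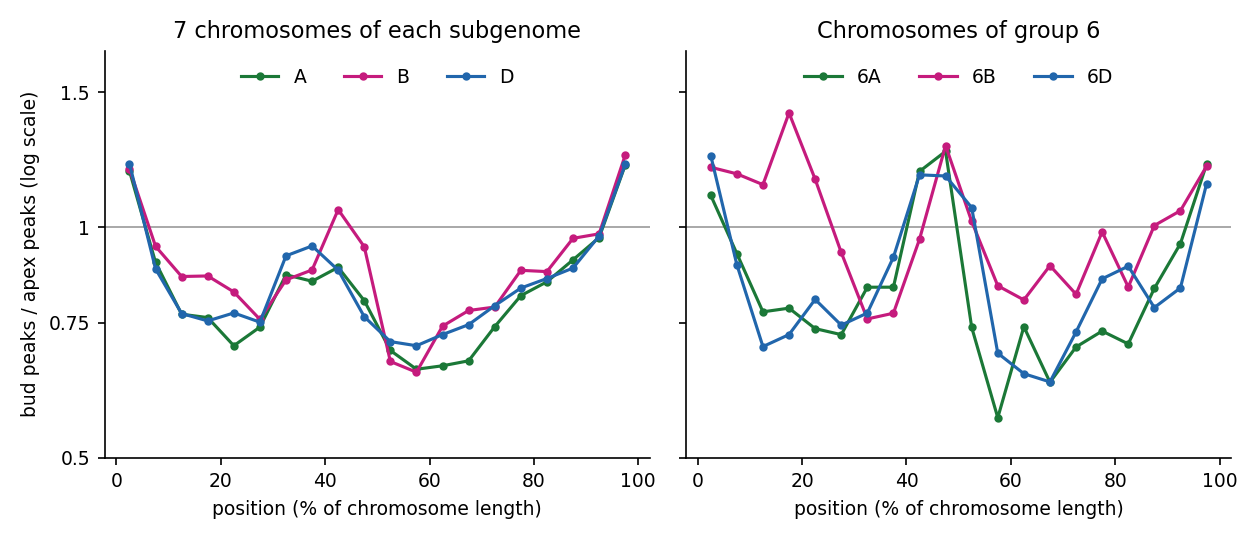
Bud peaks divided by apex peaks (log scale) in 20 equal parts of the chromosome length, over the 7 chromosomes of each subgenome (left) and for 6A, 6B and 6D (right). The ratio is above 1 in the first and last part of each curve, 6B stays above 1 over its first 25%, and the subgenome curves have a second maximum between 37.5 and 42.5% of the length.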

How the data were processed

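ATAC-seq was made from axillary buds and shoot apices of wheat, 2 libraries per tissue. The authors deposited 1 peak list per tissue. The deposited values are the start and end of each peak and carry no height, score, count or depth. Trimmomatic 0.36, Bowtie2, MACS2 and bedtools were used, per the submitters' processing notes. The genome build was, like the peak threshold and the handling of the 2 libraries, not given in the sources used here. Starts were read as counted from 0 and are printed counted from 1.

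Peaks sharing at least 1 bp with the other list were called shared and the others specific (Python 3.11.15, numpy 2.4.6, pandas 2.3.3). The counts were the same with bedtools 2.31.1, and the functions were tested on simulated data. Chromosome length was the end of the last peak of the 2 lists, and distance ran from the peak midpoint to the nearer end. Shares carry 95% Wilson intervals (scipy 1.17.1), which cover counting error over peaks and nothing else. With 1 list per tissue no replicate error exists and no test was made.

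Regions were named by a rule: the 5 widest specific peaks of each list, the 5 largest and 5 smallest width ratios, the 5 windows of 1 Mb with the largest difference in each direction, and the longest run of specific peaks. The peak classes, the rule and the alternatives were chosen with earlier results of these data known. Leaf and root lists were not used here.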

Additional observations from a re-analysis of the deposited data

How the results depend on the processing

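With 1 list per tissue and no value per library, no replicate could be left out. No paired analysis was possible because each tissue has a single list without replicate columns. Sequencing depth is unknown, and most peak widths are multiples of 25 bp. Of 71 recomputed values 28 lay within the 95% interval of the reported value and 43 lay outside it. Leaving out 6B cannot alter the shares on A and D, and leaving out homoeologous group 1 cannot alter the ratio on 6B. These values are among the 28 by construction. A change of sign was possible only for the median log2 width ratios, and none of them changed sign. The settings without 6B were chosen after seeing the data. Requiring a reciprocal overlap of 50% made most peaks of either list specific, 59.96% in buds and 62.9% in apices over the genome. It gave 67.5% in buds and 57.5% in apices within 10 Mb of an end, and 57.2% in buds and 65.9% in apices beyond 100 Mb. Counting peaks up to 500 bp apart as shared gave 31.4% in buds and 36.7% in apices. Lists of equal length gave 38.7% in buds and 39.2% in apices, a smaller gap than as deposited. Peaks of at least 525 bp gave 36.04% in buds and 38.7% in apices, with 24.3% in apices within 10 Mb, and 31.98% in buds and 45.2% in apices beyond 100 Mb. With these wide peaks the shares were 36.8% on B and 35.97% on D in buds, and 39.5% on A, 38.03% on B and 38.6% on D in apices. The outer 10% of the length in place of 10 Mb gave 41.2% in buds and 34.2% in apices, and 46.2% in apices for the interior. As bases covered, specific peaks made up 22.1% on A, 23.3% on B and 22.9% on D in buds, and 27.2% on A, 26.3% on B and 26.5% on D in apices, and 6B had a ratio of bud to apex bases of 1.11. Without 6B the share was 41.8% in apices over the genome, and on B it was 36.8% in buds and 41.5% in apices. For width, sites with 50% reciprocal overlap, which bounds the ratio by construction, had median log2 ratios of 0.13 within 10 Mb and -0.046 beyond 100 Mb, with 0.565% at least 2-fold wider and 0.697% at least 2-fold narrower in buds. Widths divided by the median of their list gave 0.18 within 10 Mb and -0.14 beyond 100 Mb, with 9.50% wider and 11.6% narrower. Summing the peaks of a site gave 10.4% wider and 10.3% narrower.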

Other observations

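The interior of the chromosomes was not uniformly poorer in bud peaks. Of the 482 windows of 20 Mb lying over 100 Mb from both ends, 413 had fewer bud than apex peaks and 64 had more, and each of the 21 chromosomes had at least 1 window with more. These windows were looked at after the data were seen. Of the 64 windows 26 were among the 121 sparsest, with 16 to 141 peaks of both lists together, where 92 had fewer bud peaks. Some margins were small, such as 85 bud and 84 apex peaks on 7A from 340000001 to 360000000. In 14 of the 482 windows, on 11 chromosomes, at least 100 peaks of both lists together lay in the window and the bud list had at least 1.3 times as many as the apex list. They included 1B from 240000001 to 260000000 (84 bud and 54 apex peaks), 3B from 340000001 to 360000000 (130 bud and 85 apex peaks), 6D from 200000001 to 220000000 (76 bud and 51 apex peaks), 1D from 160000001 to 180000000 (74 bud and 50 apex peaks) and 2B from 340000001 to 360000000 (147 bud and 100 apex peaks). On 4B the windows from 280000001 to 300000000 (99 bud and 69 apex peaks) and from 300000001 to 320000000 (110 bud and 78 apex peaks) were neighbours, as were those on 5A from 220000001 to 240000000 (102 bud and 77 apex peaks) and from 240000001 to 260000000 (68 bud and 52 apex peaks). On 6B they lay apart, from 120000001 to 140000000 (154 bud and 106 apex peaks) and from 320000001 to 340000000 (98 bud and 69 apex peaks).

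In homoeologous group 6 the ratio of bud to apex peaks was above 1 on all 3 chromosomes in the part of the length centred on 47.5%, where each part is 5% of the length. This part was chosen after the values were seen, and the neighbouring parts were mixed. In the part centred on 42.5% the ratio was 1.18 on 6A, 0.964 on 6B and 1.17 on 6D, and in that centred on 52.5% it was 0.740 on 6A, 1.02 on 6B and 1.06 on 6D. At 47.5% there were 98 bud and 78 apex peaks on 6A, 124 bud and 97 apex peaks on 6B and 91 bud and 78 apex peaks on 6D. In the part centred on 57.5% there were 44 bud and 78 apex peaks on 6A, 78 bud and 93 apex peaks on 6B and 113 bud and 165 apex peaks on 6D. Centromere positions on the build of the lists were not used here.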
